A study of Mus musculus with 3 samples.

Results

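Trimethylation of histone H3 on lysine 4 (H3K4me3) was compared in mouse granulosa cells taken before an ovulatory dose of hCG (0 h) and 4 h after it. All mice were wild type C57BL/6 females at postnatal day 21 to 28. Each had received 4 IU of eCG, which drives follicle growth. The 0 h group had no hCG, the 4 h group had 5 IU of hCG 4 h earlier, and a library made 12 h after hCG is given beside them for its values only. The cells were released by puncturing follicles, so other cells of the ovary could be carried along. The number of mice behind a library was not stated in the labels or files. Each time had 1 library, so differences carry no error, no replicate check and no p-value. The comparison used 2 of the 3 libraries of the series.

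For every protein-coding gene on chromosomes 1 to 19 and X, the bp covered by peaks were counted over the whole gene and 5 kb on each side. Of 21631 genes, 13074 (60.4%) had a peak at 0 h or 4 h. A gene was called higher at 4 h with at least 500 bp more and at least 2 times the coverage, and lower by the reverse. Coverage is a width and not a height: it says how much sequence passed the authors' peak threshold. A long gene offers more sequence to cover, so levels are compared here between times for the same gene and not between genes. The ranking of genes by their difference in bp was not corrected for length, so it can favour long genes.

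H3K4me3 is laid down at the promoters of active and poised genes by the SET1 and MLL methyltransferases, and wide domains of it often surround genes that define a cell type or are strongly transcribed. In granulosa cells of the preovulatory follicle, the LH receptor, which hCG also activates, raises cyclic AMP and then ERK signalling. The cells stop making estrogen, start making progesterone, and change their matrix and shape as the follicle ruptures. In cells taken in bulk, fewer marked cells and a narrower mark per cell cannot be told apart.

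On these chromosomes the 0 h list had 22208 peaks (8.87 Mb), the 4 h list 23619 (10.1 Mb) and the 12 h list 20644 (8.92 Mb). Peak widths had medians of 306, 315 and 333 bp and minima of 136, 139 and 152 bp in that order. Sequencing depth is unknown. Of 16 granulosa markers 14 had a peak at 0 h or 4 h, and Amh and Wt1 had none. Their summed coverage was 17059, 13605 and 8706 bp at 0, 4 and 12 h. Theca markers had peaks at 4 of 10 genes (4368, 4748 and 4814 bp), none at Cyp17a1 or Insl3. Leukocyte markers had them at 4 of 12 (2599, 4276 and 2813 bp). Adgre1, Csf1r and Itgam had 0 bp in the 0 h and 4 h libraries, and Ptprc had 0, 139 and 0 bp. All 4 covered leukocyte markers had more coverage at 4 h than at 0 h. Of them Coro1a was called higher, with 490, 1109 and 861 bp at 0, 4 and 12 h. Its window overlaps those of 3 other covered genes, and within 2 kb of its listed start it had 0 bp at all times. Endothelial markers had them at 5 of 12 (756, 665 and 164 bp), none at Pecam1, Cdh5 or Tek. Oocyte markers had them at 2 of 14 (1097, 1449 and 704 bp), surface epithelium markers at 3 of 10 (905, 753 and 428 bp) and smooth muscle and stroma markers at 1 of 10 (0, 139 and 192 bp). Erythroid markers had them at 3 of 8 (496, 1722 and 822 bp), with none at a globin gene. The leukocyte, oocyte and erythroid sums were highest at 4 h. Their part in the differences below was not tested.

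Coverage was higher at 4 h at 629 genes, 4.81% of those with a peak, and lower at 143 genes, 1.09%. Because neighbouring genes can share peaks, these were 536 and 125 separate loci. A further view counts genes with peaks at a single time: 752 genes (5.75%) had them at 4 h only and 318 (2.43%) at 0 h only. Of the higher genes 124 had 0 bp at 0 h, and the other 505 had a peak already. Of the lower genes 26 had 0 bp at 4 h. The median gene differed by 81 bp, with quartiles of -99 and 271 bp, and the median log2 ratio was 0.12. The 4 h library covered more sequence in total, and scaling its coverage to the 0 h total shifted every log2 ratio by -0.19, to a median of -0.07. Under that scaling 362 genes were higher and 222 lower, so the share of higher genes among those called was 62.0% in place of 81.5%. With peaks within 1 kb joined it was 70.7%, with 1013 genes higher and 420 lower.

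**Figure D1:**
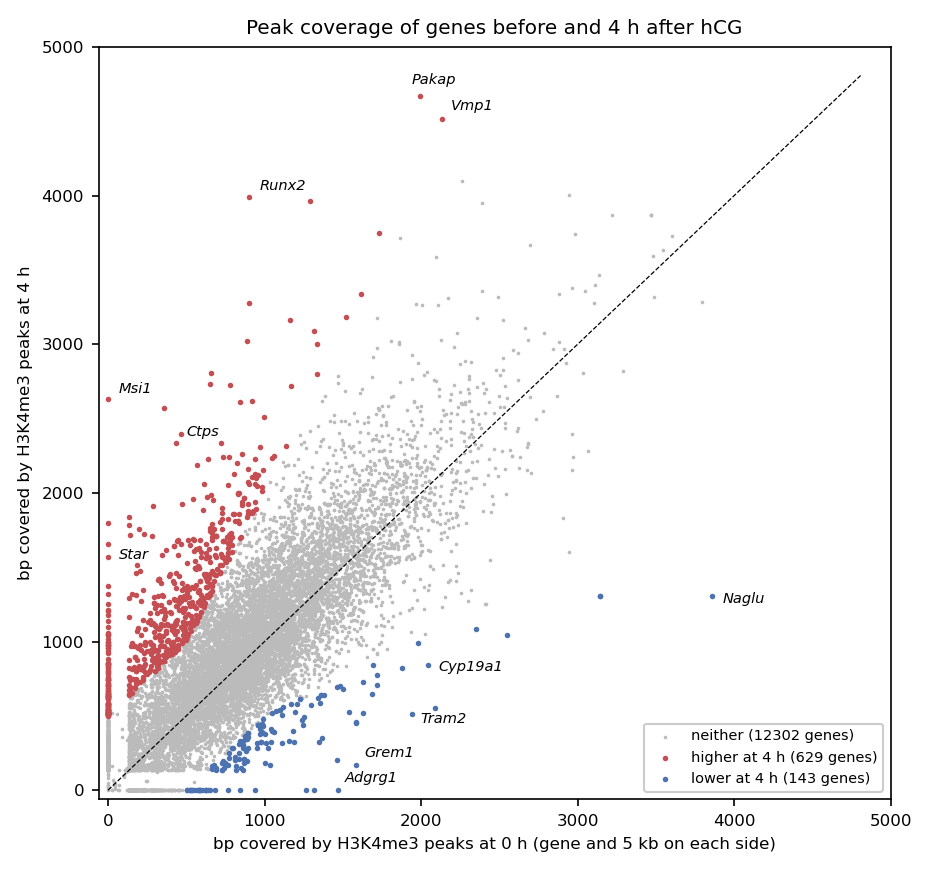
Each point is 1 of the 13074 protein-coding genes with a peak, placed by the bp covered by H3K4me3 peaks at 0 h (x axis) and 4 h (y axis) over the gene and 5 kb on each side. Red points are the 629 genes called higher at 4 h, blue points the 143 called lower, grey points the rest, and the dashed line marks equal coverage. Runx2 lies farthest above the line and Naglu farthest below it.

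Most called genes lay outside the lists of known ovulation genes. Those lists (response to LH, immediate early genes, follicular growth, steroidogenesis) held 29 of the 629 higher and 7 of the 143 lower genes. They had 37, 41, 28 and 21 covered members in that order, some shared, among 13074 covered genes. Their size alone thus leaves most called genes outside, and the share called within each list is given below. None of the 44 lists used here held 533 of the higher and 125 of the lower genes. Together the 44 lists held 1157 of the 21631 genes. The 30 loci with the largest increase ranged from 3094 down to 1562 bp, and 27 met the call. The 30 largest decreases ranged from -2554 to -892 bp, and 23 met it. In each direction 23 of the 30 loci held no ovulation-list gene among the changed genes folded into them. These loci were chosen by their difference, so what follows describes them and does not test them.

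The largest increase was at a transcription factor gene. Runx2, a Runt factor gene induced in ovulatory follicles, had 899 bp at 0 h, 3993 at 4 h and 895 at 12 h. Its coverage at 4 h was 4.44 times that at 0 h and came as 8 peaks in place of 2. The widest, chr17:44812155-44813434 in mm10, began 1193 bp from the listed Runx2 start, held 0 bp at 0 h and also lies in Supt3, which runs through the same window. Egr1, an immediate early zinc finger gene, had 779, 2726 and 1754 bp at 0, 4 and 12 h. Nr4a1, an orphan receptor gene, had 719, 2333 and 1314 bp over its whole window. Klf2, a Kruppel-like factor gene, had 138, 1717 and 1776 bp, with its 0 h value a single peak near the narrowest width of that library. In the Prdx2 locus (1164, 3164 and 2776 bp) the wide peak of 1839 bp lay on the neighbouring AP-1 gene Junb. Prdx2 itself encodes a peroxiredoxin, and its place in the ranking comes from the shared window.

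Genes of chromatin-binding and RNA-binding proteins outside the ovulation lists stood beside them. Hmga1, which encodes an architectural chromatin protein, had 0, 1654 and 1868 bp at 0, 4 and 12 h. Its relative Hmga2 had 0, 1319 and 336 bp. Zbtb20, which encodes a zinc finger repressor, had 2390, 3952 and 2446 bp, and its ratio of 1.65 stayed below the fold needed for a call. The Musashi genes Msi1 and Msi2 encode RNA-binding regulators of translation. Msi1 had 0, 2629 and 1771 bp at 0, 4 and 12 h, in 6 peaks at 4 h. Msi2 had 1318, 3090 and 1144 bp. Msi1 was thus covered at 4 h and 12 h alone, while Msi2 was back near its 0 h value at 12 h. Nfkbiz, the gene of an atypical IkB protein of the nucleus, had 1618, 3336 and 2652 bp.

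**Figure D2:**
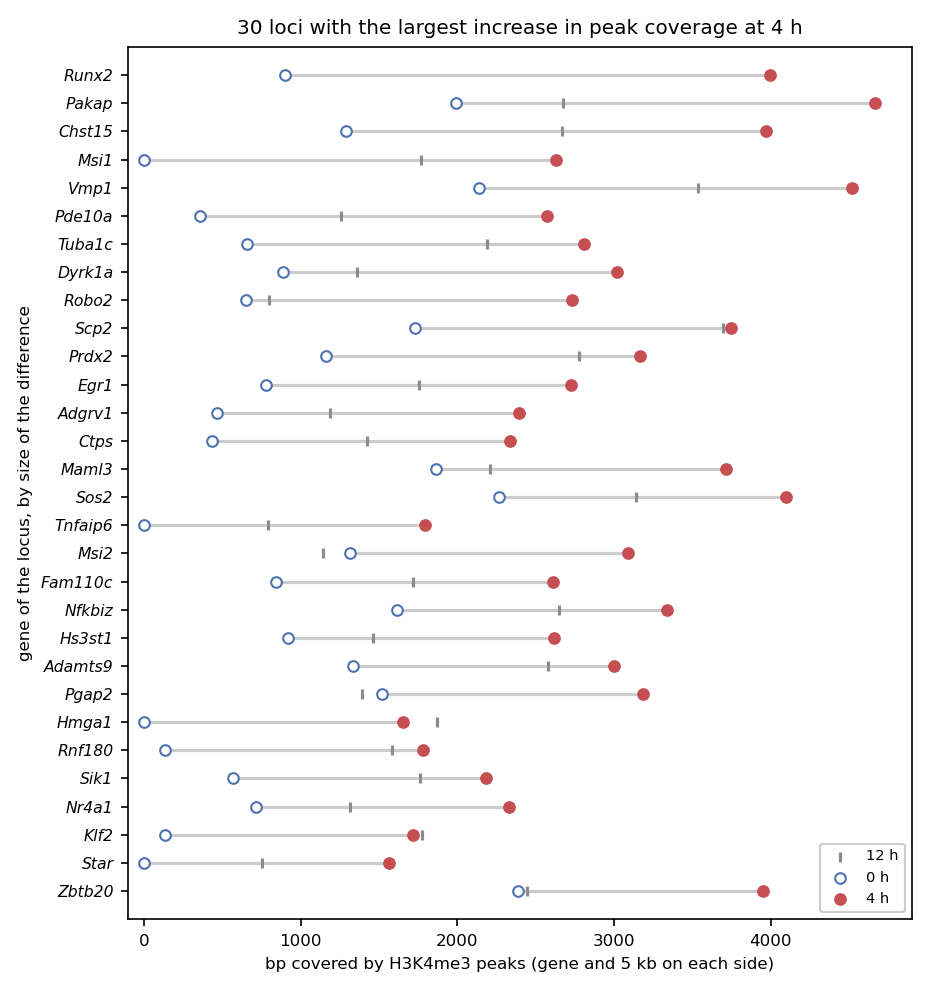
Coverage in bp (x axis) at the 30 loci with the largest increase, 1 per line in order of the difference; open circles are 0 h, red points 4 h, grey ticks 12 h. Msi1, Tnfaip6, Hmga1 and Star start at 0 bp, and at Runx2 the 12 h tick (895 bp) is hidden by the 0 h circle (899 bp).

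Several of the largest increases were at genes of signal transduction. Pakap, an anchor for protein kinase A, had 1990 bp at 0 h, 4668 at 4 h and 2674 at 12 h. Pde10a, a phosphodiesterase gene whose product degrades cyclic AMP and cyclic GMP, had 356, 2570 and 1257 bp. Sik1, the gene of a kinase induced by cyclic AMP, had 570, 2185 and 1760 bp. These 3 genes act on or near the cyclic AMP pathway, yet the cyclic AMP list as a whole had 2 of 37 genes higher (5.41%) and 1 lower. The lower gene was Rapgef4, a cyclic AMP-activated exchange factor gene, with 1004, 184 and 0 bp. Within 2 kb of its listed start Rapgef4 had 0 bp at all times, so this coverage lay elsewhere in its window. Dyrk1a, a protein kinase gene, had 890, 3022 and 1358 bp. Maml3, a coactivator gene of the Notch pathway, had 1864, 3714 and 2206 bp, a ratio of 1.99 that just missed the call. At Sos2, a Ras exchange factor gene, the window went from 2264 to 4098 bp, but the widest peak lay on its neighbour Vcpkmt, 73 bp from the listed Vcpkmt start. Within Sos2 alone, with no flank, the difference was -70 bp, and within 2 kb of its own listed start Sos2 had 1327 bp at 0 h and 1563 at 4 h.

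Genes of guidance receptors, cytoskeleton and matrix were also among them. Robo2, the gene of a SLIT receptor, had 652, 2732 and 797 bp at 0, 4 and 12 h. Adgrv1, a very long adhesion receptor gene, had 464, 2397 and 1188 bp. In both, the widest 4 h peak lay deep inside the gene, 132602 bp from the nearest listed Robo2 start and 281482 bp from that of Adgrv1. Within 2 kb of its 1 listed start, Adgrv1 had 326, 0 and 418 bp, the opposite direction between 0 h and 4 h. Tuba1c, an alpha-tubulin gene, had 658, 2806 and 2188 bp. Adamts9, a gene of a secreted proteoglycan-cleaving protease, had 1334, 3002 and 2582 bp. Chst15 and Hs3st1 encode sulfotransferases that modify chondroitin sulfate and heparan sulfate. Chst15 had 1291, 3967 and 2669 bp, and Hs3st1 had 919, 2620 and 1462 bp.

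The remaining large increases included metabolic and trafficking genes. Ctps, the gene of CTP synthase, had 433, 2339 and 1426 bp at 0, 4 and 12 h, and both earlier values were single peaks at its listed start. Scp2, the gene of a sterol and lipid carrier, had 1732, 3749 and 3696 bp. Star, which encodes the protein that moves cholesterol into mitochondria, had 0, 1567 and 757 bp. Its widest peak covered chr8:25808575-25809975. Rnf180, a ubiquitin ligase gene, had 136, 1781 and 1581 bp, from a single peak of the narrowest width. Fam110c had 846, 2609 and 1716 bp. Pgap2, a gene of GPI-anchor remodelling, had 1522, 3186 and 1394 bp, with its widest peak at the start of the overlapping nuclear pore gene Nup98.

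Vmp1, the gene of an autophagy membrane protein, had 2136, 4517 and 3536 bp at 0, 4 and 12 h. The widest 4 h peak, chr11:86583525-86584903, held 0 bp at 0 h and 823 bp at 12 h. It lay 86278 bp from the nearest listed Vmp1 start, at the far end of the gene, and contained the hairpin of the microRNA Mir21a. A window of 2 kb on each side of that hairpin had 0, 2271 and 1951 bp. Among 1005 microRNA hairpins of RefSeq (GRCm38.p6), 156 had a peak in such a window, of which 7 were higher and 6 lower by the same call, 4.49% and 3.85%. Mir322 and Mir503, which lie together on chromosome X with no protein-coding gene within 2 kb, were lower. Mir322 had 1102, 202 and 0 bp at 0, 4 and 12 h, and Mir503 had 1076, 202 and 0 bp from the same peaks. Mir202, known for its expression in gonads, had 1215, 414 and 0 bp, as did the overlapping window of Mir7686. The others lay within 2 kb of a protein-coding gene, such as Mir8101 at Hdac5 (higher), Mir1956 at Eif4e and Mir345 at Slc25a29 (both lower). The mature 5′ arms of the 4 that this paragraph turns on are shown with the seed, bases 2 to 8, in capitals, because the seed sets which messages a microRNA pairs with. The seeds are AGCUUAU for Mir21a, AGCAGCA for Mir322, AGCAGCG for Mir503 and UCCUAUG for Mir202.
mmu-miR-21a-5p: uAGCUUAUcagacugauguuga
mmu-miR-322-5p: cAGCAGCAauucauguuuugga
mmu-miR-503-5p: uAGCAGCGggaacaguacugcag
mmu-miR-202-5p: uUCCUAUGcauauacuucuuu

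**Figure D3:**
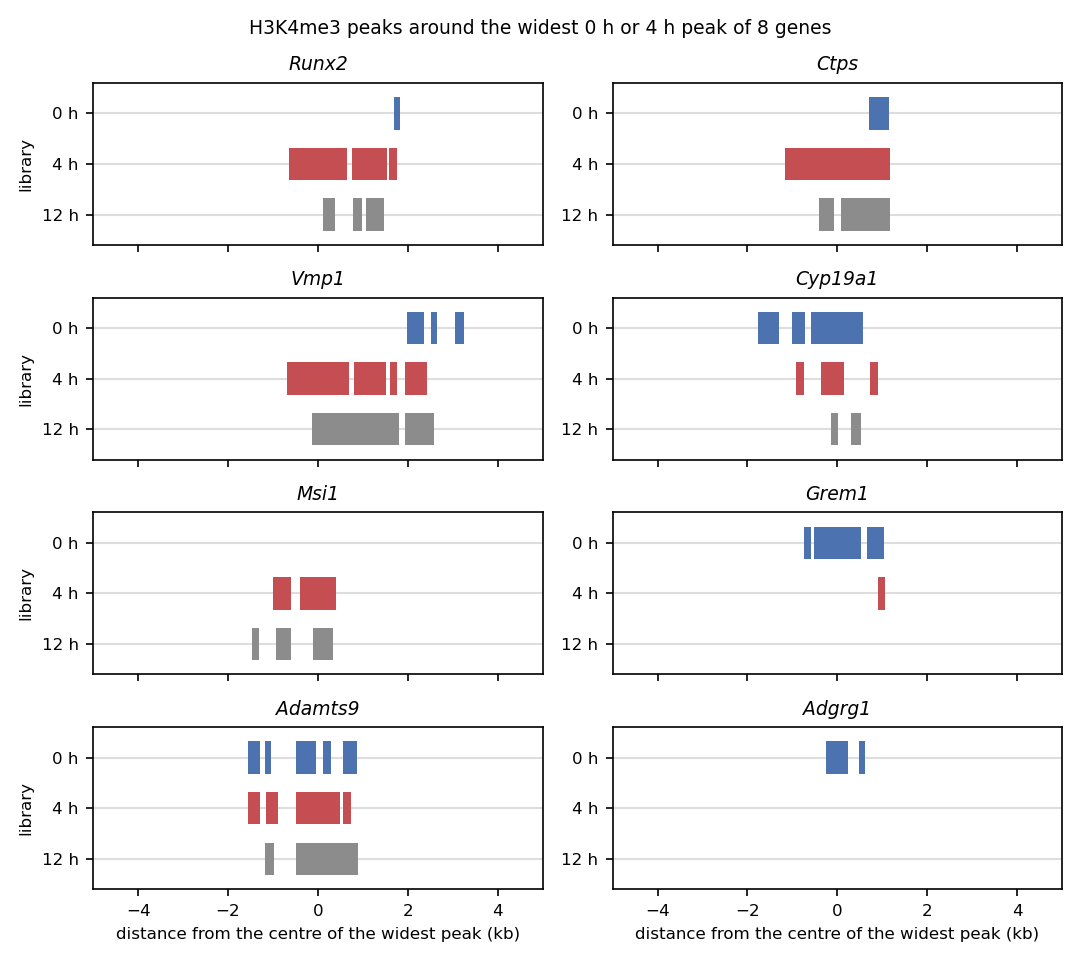
Peaks in the 0 h (blue), 4 h (red) and 12 h (grey) libraries within 5 kb of the widest 4 h or 0 h peak of 8 genes; the x axis is the distance from the centre of that peak in kb, in chromosome order. At Vmp1, Runx2, Msi1 and Ctps the 4 h bars reach into sequence with no 0 h bar, and at Adgrg1 and Grem1 the 0 h bars have no or almost no counterpart.

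The largest decrease was in the window of Naglu, which holds the estrogen synthesis gene Hsd17b1. The window of Naglu, a lysosomal enzyme gene, had 3858 bp at 0 h, 1304 at 4 h and 609 at 12 h. Its widest peak, chr11:101078501-101080232, lay on Hsd17b1, whose own window had 3146, 1304 and 349 bp and shared peaks with Naglu and Coasy. Cyp19a1, which encodes aromatase, had 2045, 845 and 382 bp, with the widest 0 h peak at chr9:54191940-54193100, 643 bp from its listed start. Akr1c14, the gene of a 3-alpha-hydroxysteroid dehydrogenase, had 2258, 1326 and 925 bp. Esr1, which encodes estrogen receptor alpha, had 2907, 1833 and 1295 bp. At Akr1c14 and Esr1 the 0 h value was 1.70 and 1.59 times that at 4 h, which is under the fold for a call.

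Follicle signalling and granulosa transcription factor genes followed. Grem1, a BMP antagonist gene, had 1585 bp at 0 h, 166 at 4 h and 0 at 12 h. Nppc, the gene of the peptide that keeps oocytes arrested, had 1721, 778 and 761 bp. Gata6, a transcription factor gene of steroidogenic cells, had 1350, 324 and 0 bp. Foxo1, a factor gene of growing follicles, had 617, 0 and 0 bp. Inhbb, which encodes the inhibin beta B subunit, had 681, 0 and 549 bp. Nr4a2 had 1539, 527 and 1426 bp at 0, 4 and 12 h, the opposite direction to its relative Nr4a1 between 0 h and 4 h. Its widest 0 h peak lay 8046 bp from its listed start, and within 2 kb of that start its coverage was 486 bp at 0 h against 527 bp at 4 h. Thus the lower value of Nr4a2 lay inside the gene and away from its 1 listed start. Whether another start lies there is not known from the list.

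**Figure D4:**
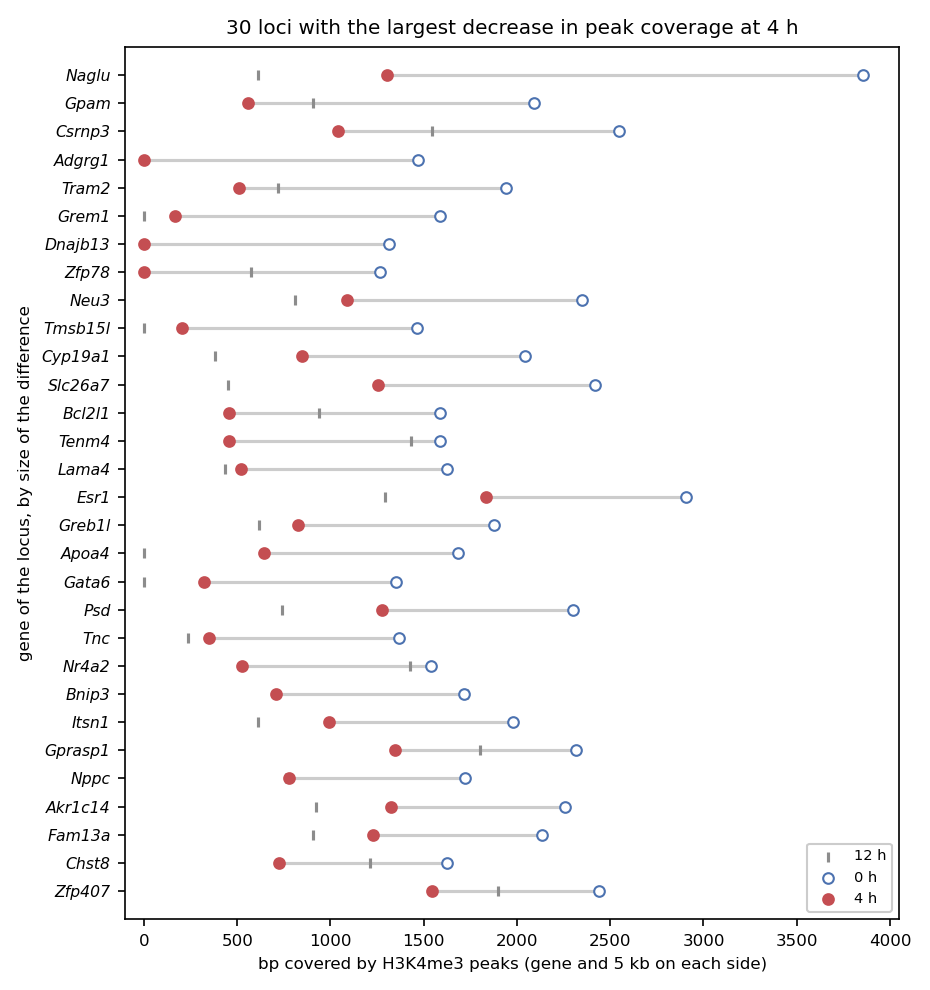
Coverage in bp (x axis) at the 30 loci with the largest decrease, 1 per line in order of the difference; open circles are 0 h, red points 4 h, grey ticks 12 h. Adgrg1, Dnajb13 and Zfp78 reach 0 bp at 4 h, and at Nr4a2, Tenm4 and Bnip3 the 12 h tick lies close to the 0 h circle.

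Genes outside the ovulation lists, which hold few of the covered genes, made up most of the largest decreases. Adgrg1, an adhesion receptor gene, had 1472 bp at 0 h in 5 peaks and 0 at 4 h and 12 h. Gpam, whose enzyme starts triglyceride synthesis in mitochondria, had 2089, 556 and 904 bp. Tram2, a gene of the endoplasmic reticulum translocation machinery, had 1942, 510 and 720 bp. Neu3, a ganglioside sialidase gene, had 2348, 1087 and 808 bp. Slc26a7, an anion exchanger gene, had 2417, 1254 and 449 bp, with 1.93 times as much at 0 h as at 4 h and so no call. Bcl2l1, which encodes the survival protein Bcl-xL, had 1587, 454 and 941 bp, and Bnip3, a mitophagy receptor gene, had 1716, 706 and 1730 bp. Of these, Bnip3 had at 12 h about what it had at 0 h, and Adgrg1 remained at 0 bp.

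Matrix and adhesion genes were found in both directions. Lama4, a laminin gene, had 1626, 520 and 437 bp at 0, 4 and 12 h, and Tnc, the tenascin C gene, had 1367, 348 and 237 bp. Tenm4, a teneurin gene, had 1586, 458 and 1432 bp. Its widest 0 h peak lay 432745 bp from its nearest listed start. Within 2 kb of its best-covered listed start it had 0, 250 and 623 bp, so the lower value lay away from there. Csrnp3 had 2548, 1041 and 1544 bp. The apolipoprotein gene Apoa4 had 1684, 644 and 0 bp. The window of Dnajb13, a gene of ciliary axonemes, had 1313, 0 and 0 bp and overlaps that of the mitochondrial uncoupling gene Ucp2. Zfp78 and its neighbour Zfp28, both zinc finger genes, shared 1266 bp at 0 h, 0 at 4 h and 576 at 12 h in the window of Zfp78. Tmsb15l had 1462, 203 and 0 bp, but its near-identical thymosin copies overlap and reads could be split among them, so the value of each copy is uncertain. At the other 7 of the 30 loci, Greb1l, Psd, Itsn1, Gprasp1, Fam13a, Chst8 and Zfp407, the differences lay between -1052 and -892 bp, and Psd, Gprasp1, Fam13a and Zfp407 missed the fold for a call.

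At 4 h only, the genes with most coverage besides Msi1, Tnfaip6, Hmga1, Star and Hmga2 were a mixed group. The window of Epgn, an EGF-like ligand gene, had 0, 1376 and 152 bp at 0, 4 and 12 h. Its widest peak lay 9954 bp from the listed Epgn start, outside any protein-coding gene. Arc, the neuronal activity gene, had 0, 1250 and 797 bp. Cd24a, a surface glycoprotein gene, had 0, 1211 and 974 bp, and Rhox8, a reproductive homeobox gene on chromosome X, had 0, 1208 and 537 bp. Emx2, a homeobox gene, had 0, 1101 and 752 bp. Tmsb4x, the gene of an actin-sequestering thymosin, had 0, 1060 and 966 bp. Enpp3, an ectonucleotidase gene, had 0, 1044 and 0 bp, in 1 peak across its listed start. Sphk1, a sphingosine kinase gene, had 0, 1043 and 1164 bp, and Syt12, a synaptotagmin gene, had 0, 1049 and 870 bp. Enpp3 was back at 0 bp at 12 h, and Sphk1 had slightly more than at 4 h.

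At 0 h only, coverage was smaller. Mro had 840, 0 and 0 bp at 0, 4 and 12 h, and Zfp771 had 768, 0 and 655 bp. Tafa4, the gene of a secreted chemokine-like protein, had 639, 0 and 0 bp. Kif26a, an atypical kinesin gene, had 624, 0 and 0 bp, and the transcription factor gene Myb had 587, 0 and 0 bp. Ror1, a Wnt receptor gene, had 600, 0 and 751 bp, and the tetraspanin gene Tspan15 had 584, 0 and 825 bp. Insyn2b had 587, 0 and 0 bp in a window shared with Dock2. Thap3 had 628 bp at 0 h from the edge of a peak in Phf13, which still held 153 bp at 4 h, so its 0 at 4 h depends on where its window ends. Ror1, Tspan15 and Zfp771 were covered again at 12 h.

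Promoters of 8 members are printed to show the sequence next to starts where coverage differed. They are the 3 genes with most coverage within 2 kb of their start among those named at 4 h only, the 3 chosen in the same way at 0 h only with the thymosin copies left out, and Areg and Epha2, which were picked after their values were seen from the 6 higher genes that hold CRE letters and had 0 bp at 0 h. The sequences are the 250 bases before the listed start, from RefSeq on GRCm38.p6 (mm10), 5′ to 3′ along the gene. Of 9 short motifs searched on both strands, capitals mark 3: the cyclic AMP response element CRE (TGACGTCA), the AP-1 site (TGANTCA) and the TATA box (TATAAA, or TTTATA on the other strand). Matches to the other 6 motifs are left in lower case, and Hmga2, Tafa4 and Kif26a hold none of the 3. Tnfaip6 (chr2:52037863-52038112, + strand) encodes a hyaluronan-binding protein of the expanding cumulus and had 0, 1791 and 794 bp within 2 kb of its start at 0, 4 and 12 h. Hmga2 (chr10:120476470-120476719, - strand) had 0, 1319 and 336 bp there, and Lonrf3 (chrX:36328159-36328408, + strand), a RING finger gene, had 0, 1137 and 889 bp. Areg (chr5:91139349-91139598, + strand), the amphiregulin gene, had 0, 977 and 0 bp, and Epha2 (chr4:141300971-141301220, + strand), an ephrin receptor gene, had 0, 502 and 531 bp. In the other direction, Tafa4 (chr6:97060412-97060661, - strand) had 639, 0 and 0 bp, Adgrg1 (chr8:94984149-94984398, + strand) 628, 0 and 0 bp, and Kif26a (chr12:112145958-112146207, + strand) 624, 0 and 0 bp. On the printed bases themselves, peaks covered 0, 218 and 183 bp of Hmga2 and 7, 0 and 0 bp of Tafa4 at 0, 4 and 12 h, and 0 bp of the other 6 in all 3 libraries. Their peaks near the start lay outside these bases. The CRE of Areg begins 61 bases before the start, with a TATA box at 31, and that of Epha2 at 33. AP-1 letters begin 142 bases before the start in Tnfaip6, and 141 and 59 bases before it in Adgrg1.
Tnfaip6: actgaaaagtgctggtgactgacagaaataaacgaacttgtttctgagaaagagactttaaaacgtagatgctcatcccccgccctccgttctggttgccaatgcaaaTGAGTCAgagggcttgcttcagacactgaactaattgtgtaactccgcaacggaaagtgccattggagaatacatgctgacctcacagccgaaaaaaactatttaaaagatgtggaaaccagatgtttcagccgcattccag
Hmga2: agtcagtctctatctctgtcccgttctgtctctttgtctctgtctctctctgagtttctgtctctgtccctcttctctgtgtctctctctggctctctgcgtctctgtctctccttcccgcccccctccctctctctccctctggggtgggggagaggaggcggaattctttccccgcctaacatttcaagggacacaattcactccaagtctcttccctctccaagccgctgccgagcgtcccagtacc
Lonrf3: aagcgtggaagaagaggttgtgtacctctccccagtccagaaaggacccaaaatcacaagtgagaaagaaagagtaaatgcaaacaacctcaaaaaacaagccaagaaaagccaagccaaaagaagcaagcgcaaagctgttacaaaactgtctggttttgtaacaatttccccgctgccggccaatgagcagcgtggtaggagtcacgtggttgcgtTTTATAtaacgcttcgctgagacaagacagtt
Areg: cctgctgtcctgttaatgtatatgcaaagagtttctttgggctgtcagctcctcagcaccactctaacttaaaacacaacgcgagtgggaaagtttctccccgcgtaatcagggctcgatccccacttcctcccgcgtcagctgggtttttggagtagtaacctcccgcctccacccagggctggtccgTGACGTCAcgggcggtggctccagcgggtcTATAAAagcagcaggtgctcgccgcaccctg
Epha2: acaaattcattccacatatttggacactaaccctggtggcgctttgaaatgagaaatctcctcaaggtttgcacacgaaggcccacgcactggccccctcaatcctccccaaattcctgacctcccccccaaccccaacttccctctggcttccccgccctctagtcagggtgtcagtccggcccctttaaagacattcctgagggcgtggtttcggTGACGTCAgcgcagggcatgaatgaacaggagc
Tafa4: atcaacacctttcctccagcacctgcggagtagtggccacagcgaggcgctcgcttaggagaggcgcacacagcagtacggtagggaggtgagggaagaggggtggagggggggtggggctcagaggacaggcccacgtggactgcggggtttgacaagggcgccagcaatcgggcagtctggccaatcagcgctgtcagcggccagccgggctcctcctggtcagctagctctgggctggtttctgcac
Adgrg1: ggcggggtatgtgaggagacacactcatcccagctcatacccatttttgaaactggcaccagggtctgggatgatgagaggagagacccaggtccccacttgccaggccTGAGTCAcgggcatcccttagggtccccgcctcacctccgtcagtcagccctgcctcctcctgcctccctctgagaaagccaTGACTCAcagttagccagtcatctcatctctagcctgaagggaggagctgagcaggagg
Kif26a: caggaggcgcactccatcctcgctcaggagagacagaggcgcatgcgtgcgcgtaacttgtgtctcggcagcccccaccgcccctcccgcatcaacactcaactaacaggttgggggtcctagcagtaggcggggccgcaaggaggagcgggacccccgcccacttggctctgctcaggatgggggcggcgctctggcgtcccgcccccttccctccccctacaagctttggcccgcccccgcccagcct

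Over all genes with a listed start, the CRE letters were in 18 of 499 higher genes (3.61%), in 0 of 120 lower genes, in 2.83% of genes with a peak and in 2.01% of all listed genes. Among higher genes with 0 bp at 0 h they were in 6 of 94 (6.38%): Areg, Epha2, Dapk3, Arl4d, Mapk10 and Syn1. The other 12 had coverage at 0 h. They included the regulators Errfi1 (757 bp at 0 h, 1702 at 4 h and 1774 at 12 h), Rcan1 (504, 1529 and 1228 bp) and Dusp8 (480, 1010 and 761 bp). These regulators were picked after their values were seen. Of the 18, Syn1 had 0 bp within 2 kb of its listed start at all times, and its coverage is that also counted for Timp1. Mrpl49 and Fau had the same values (549, 1242 and 324 bp), so 1 locus may be counted for both. AP-1 letters were in 5.61% of higher, 3.33% of lower and 3.86% of genes with a peak, against 6.18% of all listed genes. TATA letters were in 6.41%, 6.67% and 5.81%, against 12.2%. Promoters with few CpGs (observed over expected below 0.6) made up 30.9% of higher and 35.0% of lower genes, 26.5% of genes with a peak and 50.3% of all listed genes. Among higher genes that started from 0 bp they were 47.9% (45 of 94). A matching string of letters describes the sequence and does not show that a factor bound there.

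The differences lay partly away from listed starts. Of the higher genes 499 had a listed start, and 69.6% of their added coverage fell within 2 kb of the one with most coverage. For the 120 lower genes with a listed start it was 67.9%, and 72.9% of the net difference over all genes with a peak. At 48 of the 499 higher and 12 of the 120 lower genes that start was covered at neither time. The same held for 1038 of the 10526 genes with a peak and a listed start, a similar share. Vmp1, Robo2 and Adgrv1 are named examples of large differences inside genes. Genes called higher had a median length of 27.4 kb and those called lower 23.7 kb, against 24.3 kb for all genes with a peak. The 30 largest increases included very long genes, such as Robo2 (1555468 bp) and Zbtb20 (758704 bp). Short genes such as Klf2 (2593 bp) and Egr1 (3750 bp) were also among them. How far length set that ranking was not tested. On chromosome X, 7.11% of genes with a peak were higher and 2.84% lower, and on chromosome 10 the shares were 7.10% and 1.58%.

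Read by function, 3 of the 4 ovulation lists had the highest shares of higher or of lower genes among lists with at least 15 covered members. Of 37 covered genes of the LH response, 15 were higher (40.5%) and 0 lower, with a median difference of 437 bp. Immediate early genes had 13 of 41 higher (31.7%), 1 lower (Nr4a2) and a median of 404 bp. Beyond Egr1, Nr4a1, Klf2 and Junb, they included Dusp5, an ERK phosphatase gene, with 442 bp at 0 h, 1674 at 4 h and 1387 at 12 h. Follicular growth genes had 0 of 28 higher, 6 lower (21.4%) and a median of -264 bp. The 6 were Cyp19a1, Hsd17b1, Inhbb, Gata6, Grem1 and Nppc. Steroidogenesis and luteinization genes had 2 of 21 higher (9.52%), Star and Sfrp4, and the covered genes Cyp11a1 (0, 437 and 353 bp) and Lhcgr (1198, 1314 and 1573 bp) were not called. These lists were assembled from knowledge of ovulation and were known to move in these libraries, so their counts are no independent evidence.

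Several lists outside ovulation had shares above the 4.81% of all genes. Of 21 oxidative stress response genes 5 were higher (23.8%) and 0 lower, with a median of 446 bp. Slc7a11, the cystine transporter gene, had 633 bp at 0 h, 1971 at 4 h and 838 at 12 h. Txn1, the thioredoxin gene, had 944, 2098 and 1001 bp. Mt2, a metallothionein gene, had 296, 1297 and 1243 bp, and Gsr and Srxn1, genes of glutathione reductase and sulfiredoxin, were the other two. With the 4 h total scaled, or with peaks within 1 kb joined, 2 of the 5 calls were left. The median of the list was then 243 and 288 bp.

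Genes of the Notch pathway, which signals between touching cells, had 5 of 18 higher (27.8%), 1 lower and a median of 292 bp. With the 4 h total scaled 4 of the 5 calls were left. Notch2, a receptor gene, had 688, 1629 and 1547 bp at 0, 4 and 12 h. The ligand genes Jag1 and Dll4 had 301, 1110 and 937 bp and 0, 614 and 505 bp. The target gene Hes1 had 211, 1041 and 898 bp, and Heyl had 0, 534 and 0 bp. Its relative Hey2, also a target gene, was the lower member, with 1498, 680 and 787 bp. Thus, among the called genes, a receptor, both kinds of ligand and a pair of targets were higher, and Hey2 was lower. Of all 18 covered genes 15 had more coverage at 4 h and 3 had less. Besides Hey2, those with less were the receptor gene Notch3 (341, 169 and 0 bp) and the ligand gene Dll1 (329, 161 and 471 bp).

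Wnt signalling genes had 6 of 32 higher (18.8%), 1 lower (Ror1) and a median of 141 bp. With the 4 h total scaled, or with peaks within 1 kb joined, 4 of the 6 calls were left. Joining also gave 3 lower genes. The ligand gene Wnt5b had 181, 1461 and 1320 bp at 0, 4 and 12 h. Within 2 kb of its best-covered listed start it had 0, 151 and 0 bp, and its window overlaps that of 1 other covered gene. The coreceptor gene Lrp6 had 831, 1990 and 1297 bp. Axin2, a feedback target gene, had 484, 1214 and 1190 bp, and the corepressor gene Tle1 had 944, 1894 and 1076 bp. Tle3, another corepressor gene, and Sfrp4, a secreted antagonist gene, were the other two. Activating and inhibiting members of the pathway were thus both among the 6.

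Extracellular matrix and protease genes had 7 of 32 higher (21.9%), 1 lower and a median of 135 bp. With the 4 h total scaled 4 of the 7 calls were left and the median was 39 bp. Besides Adamts9, Hspg2, the perlecan gene, had 287, 1124 and 1252 bp at 0, 4 and 12 h. The type IV collagen genes Col4a1 and Col4a2, which lie head to head, shared 0, 588 and 631 bp and count as 1 locus. Timp1, a metalloproteinase inhibitor gene, had 0, 995 and 2300 bp, counted also for Syn1, the gene in which it lies. Fbn1, the fibrillin gene, was lower with 505, 0 and 204 bp. Among axon guidance genes 4 of 26 were higher (15.4%) and 1 lower, and with the 4 h total scaled 2 of the 4 calls were left. Sema6a had 713, 1513 and 775 bp and Epha4 had 302, 943 and 984 bp, next to Robo2 and Epha2. Sema7a was the lower one, with 1114, 503 and 1565 bp.

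MAPK regulator genes had 5 of 40 higher (12.5%) and 0 lower, with a median of 174 bp. The 5 were the kinase gene Map2k3 (359, 1151 and 847 bp at 0, 4 and 12 h), the phosphatase genes Dusp8 and Dusp10, and the feedback inhibitor genes Spry4 (196, 834 and 1185 bp) and Errfi1. All but Map2k3 encode proteins that damp MAPK signalling. Other genes of this kind in the list, such as Spry1, Spry2, Spred1, Spred2, Spred3, Dusp7 and Dusp16, were not called. With the 4 h total scaled 2 of the 5 calls were left and the median of the list was 22 bp. By gene family, 5 of 16 covered Kruppel-like factor genes were higher (31.3%) and 0 lower, with a median of 428 bp. They were Klf2, Klf1, Klf5, Klf9 and Klf16, of which Klf5 and Klf16 were picked after their values were seen. Klf1, also an erythroid marker, had 0, 779 and 488 bp. Of 360 covered Zfp genes, 11 were higher (3.06%) and 7 lower (1.94%), and of 16 covered collagen genes 4 were higher and 0 lower.

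**Figure D5:**
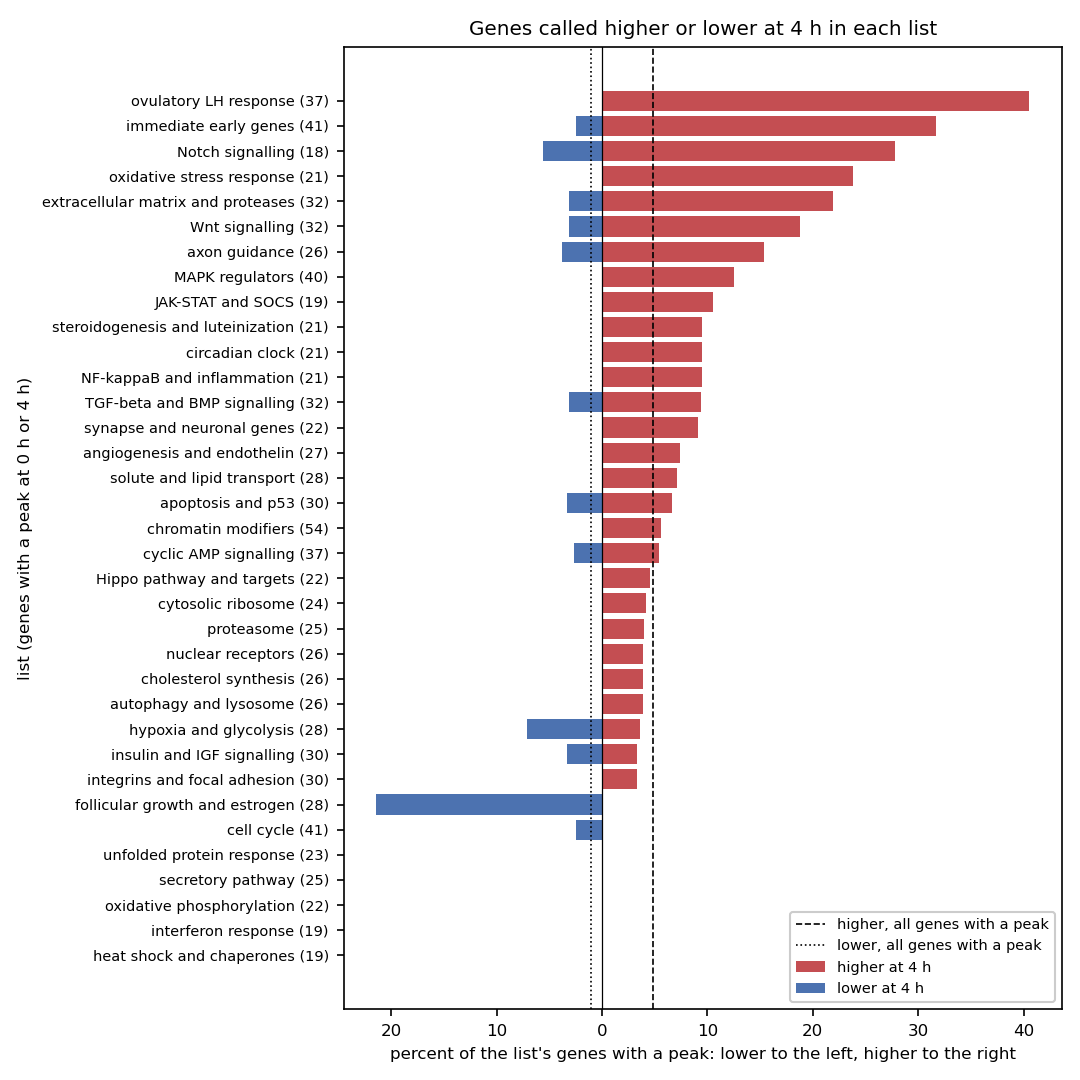
Percent of the covered genes of each list that were called higher (red, to the right) or lower (blue, to the left) at 4 h, for 35 lists with at least 15 covered genes; numbers in brackets are the covered genes. The dashed and dotted lines mark 4.81% and 1.09%, the shares over all genes. LH-response and immediate early genes have the longest red bars and follicular growth genes the longest blue bar.

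Some other lists also had shares above those of all genes, from few calls. They included JAK-STAT and SOCS genes (2 of 19 higher, 10.5%), NF-kappaB and circadian clock genes (each 2 of 21, 9.52%) and TGF-beta and BMP genes (3 of 32, 9.38%). Synapse and neuronal genes had 2 of 22 higher (9.09%) and angiogenesis genes 2 of 27 (7.41%). Hypoxia and glycolysis genes had 2 of 28 lower (7.14%). The lists that follow lay near or below the shares of all genes. None of 23 unfolded protein response genes, 19 heat shock and chaperone genes, 19 interferon response genes, 25 secretory pathway genes and 22 oxidative phosphorylation genes was called in either direction. Their medians were between -22 and 165 bp, and under the scaled 4 h total all 5 were below 0, with 1 unfolded protein response gene then lower. The proteasome and cytosolic ribosome lists, given as references, had 1 gene higher each, Psmd2 (636, 1300 and 860 bp at 0, 4 and 12 h) and Rpl13 (802, 1857 and 1469 bp). Ribosomal genes had 22 of 24 members with more coverage at 4 h and a median of 261 bp, above the 81 bp of all genes. Cell cycle genes had 0 of 41 higher and 1 lower, the mitotic cyclin gene Ccnb2, with 836, 252 and 525 bp. Of 26 cholesterol synthesis genes only Dhcr7, the last enzyme of the pathway, was higher (735, 2243 and 1794 bp).

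Single members stood out in lists with few calls. Egln3, a HIF prolyl hydroxylase gene, had 229, 1724 and 844 bp at 0, 4 and 12 h, while Hk1, a hexokinase gene of the same hypoxia and glycolysis list, was lower with 1226, 613 and 822 bp. Itga2, an integrin gene, had 806, 2124 and 568 bp. Rragd, a GTPase gene of lysosomal nutrient sensing, had 388, 1440 and 1287 bp. Id2, a BMP target gene, had 184, 1512 and 2005 bp, and Smad6, which encodes an inhibitor of the same pathway, was lower with 795, 281 and 202 bp. Its relatives of the same list went the other way from Id2 between 0 h and 4 h, without a call. Id1 had 2162, 1868 and 1315 bp, Id3 1956, 1891 and 530 bp, and Id4 303, 257 and 611 bp. Of the 32 covered TGF-beta and BMP genes 20 had less coverage at 4 h and 12 had more, with a median of -75 bp. The clock genes Cry2 and Arntl had 725, 1897 and 1622 bp and 488, 1074 and 1293 bp. Gadd45b, a stress gene, had 446, 1686 and 770 bp.

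Near the 500 bp threshold, Pla2g7 and Epha2 were just inside with 501 and 502 bp more at 4 h, and Taf9b and Egr3 just outside with 497 and 498. In the other direction Ptgis and Fbn1 were inside with -503 and -505 bp, and Apoa1 and Apoc3 outside with -499 bp each. A few bp thus separate called from uncalled genes there.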

How the data were processed

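H3K4me3 ChIP-seq of granulosa cells gave 1 library per time (0, 4 and 12 h after hCG). The authors deposited a peak list per library, with the chromosome, start and end of each peak in bp positions and no score or count. The submitters' processing notes name CASAVA 1.8, Bowtie2 2.2.3, MACS2 2.0.9 and mm10. The peak threshold and any input subtraction are not stated there. The tag nolambda is part of each peak name at 0 h and 4 h but not at 12 h, and the labels place the 12 h library in a different lane.

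Gene ends came from RefSeq (GRCm38.p6), which here gives no exons, and listed start sites were known for 80.5% of genes with a peak. Genes on chromosomes Y and M were left out. Coverage over each gene and 5 kb on each side was computed with Python 3.11.15, pandas 2.3.3 and NumPy 2.4.6, and the calling was tested on simulated data. With 1 library per time no test was made.

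Named are the 30 loci with the largest increase and the 30 with the largest decrease (1 gene per locus, unnamed gene models left out), the 15 genes with most coverage at 4 h only and the 15 at 0 h only, up to 4 called members per list, and the 2 genes on each side of the threshold in each direction. Members, lists and settings were chosen with earlier results of these data known. Other genes are marked as picked after their values were seen, or appear as members behind a count. Alternatives were other flanks, thresholds and peak sets, and scaling. The result of 1 gene list is not reported here.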

Additional observations from a re-analysis of the deposited data

Results flagged for a closer look

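Peaks on chromosome Y, which the gene comparison leaves out, were listed in all libraries: 43 at 4 h, 28 at 0 h and 25 at 12 h. Of these, 7, 8 and 4 in the same order lay near the distal end of the chromosome, part of which is shared with X. Their source was not tested.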

How the results depend on the processing

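The main counts were 629 genes higher and 143 lower at 4 h, 752 covered at 4 h only and 318 at 0 h only, with a median log2 ratio of 0.12. Joining peaks within 1 kb gave 1013 higher and 420 lower and a median of 0.059. Scaling the 4 h total to that of 0 h gave 362 higher, 222 lower and a median of -0.074, the opposite sign. Leaving out peaks under 185 bp gave 236 lower. Genes without a neighbouring window, a smaller set, gave 239 higher, 51 lower, 330 at 4 h only and 133 at 0 h only. A threshold of 250 bp gave 1108 and 388, of 1000 bp 146 and 22, of 1.5 times 1067 and 240, of 3 times 293 and 75, and no fold 1255 and 268. The other settings (no flank, a 10 kb flank, equal numbers of the widest peaks) stayed within 1.5 times of these counts. Without a flank 464 of the 629 higher and 100 of the 143 lower genes were still called. Of 945 values of 146 named genes under these settings, 868 moved little and 76 moved more, 46 of the latter with peaks within 1 kb joined. The 868 include 69 values of genes without a neighbouring window, which that setting cannot change. The remaining 1 value turned its sign: Sos2, with -70 bp without a flank. The cause was not tested. No paired analysis was possible because each time had 1 library and no test was made. Depth is unknown, so a gene with 0 bp may carry a mark too weak to pass the authors' peak threshold.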
